A study of Homo sapiens with 30 samples.

Results

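The 54 interferon-stimulated genes described here are antiviral effectors, and regulators of antiviral defence, whose transcription is raised by interferons. They were chosen by name, and all 54 were matched by their GENCODE 29 symbol among the 60554 gene identifiers counted. All 54 also passed the filter on low counts, which left 15081 genes for testing. RNA came from 5 human T-cell acute lymphoblastic leukaemia (T-ALL) lines: Loucy, PER-117, TALL-1, PEER and MOLT-16. Cultures of each were given 1 µM decitabine (DAC) for 48 h or its vehicle, dimethyl sulfoxide (DMSO), with 3 libraries per line and treatment and 30 in all. The labels name no engineered allele in any line, and each line is 1 established culture, so a result holds for that line. Whether the 3 libraries of a group stem from separate cultures is not stated in the labels, so the p-values reflect the spread among these libraries only, and that spread may be technical.

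Interferons bind receptors on the cell surface, which switch on JAK kinases and, through them, STAT transcription factors. A complex of STAT proteins with IRF9 binds the interferon-stimulated response element (ISRE) in the promoters of these genes, and other IRF factors bind the same element. Decitabine is a cytidine analogue that is built into DNA and depletes DNA methyltransferases. Loss of methylation is known to release transcripts of endogenous retroviruses that the cell senses as viral RNA, a response called viral mimicry. The comparison of DAC with DMSO shows how the interferon-stimulated genes changed with the drug in each line. Retroviral transcripts and DNA methylation were not examined, so whether viral mimicry underlies a change was not tested.

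The promoters of 4 members are shown as examples. IFIT3, IFI44L and LGALS3BP had the largest fitted rises of the list in Loucy, and LGALS3BP also in PER-117. ISG15 is the ubiquitin-like founder of the family, and was called in no line. Each sequence runs from 250 bases before to 50 bases after a transcription start, 5′ to 3′ on the gene's strand, from RefSeq on GRCh38.p14, and IFIT3 has 2 starts. Capitals mark every match to the core of the ISRE on either strand, searched as GAAA, any pair of bases and GAAA again, and neighbouring matches that overlap form 1 capital run in ISG15.
IFIT3 chr10:89327747-89328046 (+ strand): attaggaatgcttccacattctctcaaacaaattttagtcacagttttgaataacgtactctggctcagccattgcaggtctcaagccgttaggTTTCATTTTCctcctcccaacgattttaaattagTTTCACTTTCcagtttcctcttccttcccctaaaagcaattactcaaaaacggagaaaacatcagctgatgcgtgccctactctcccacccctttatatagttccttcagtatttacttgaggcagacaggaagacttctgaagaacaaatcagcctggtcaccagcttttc
IFIT3 chr10:89332279-89332578 (+ strand): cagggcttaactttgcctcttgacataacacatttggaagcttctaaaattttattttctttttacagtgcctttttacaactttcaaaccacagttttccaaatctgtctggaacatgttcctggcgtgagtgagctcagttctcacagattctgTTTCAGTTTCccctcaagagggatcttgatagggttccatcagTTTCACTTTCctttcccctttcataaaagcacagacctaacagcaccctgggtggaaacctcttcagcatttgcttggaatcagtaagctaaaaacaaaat
IFI44L chr1:78620198-78620497 (+ strand): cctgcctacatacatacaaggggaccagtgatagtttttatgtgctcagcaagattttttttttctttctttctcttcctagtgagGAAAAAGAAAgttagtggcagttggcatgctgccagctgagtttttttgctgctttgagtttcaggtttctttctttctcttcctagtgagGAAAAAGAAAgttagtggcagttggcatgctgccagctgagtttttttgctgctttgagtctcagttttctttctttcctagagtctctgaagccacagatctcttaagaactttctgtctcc
LGALS3BP chr17:78979874-78980173 (- strand): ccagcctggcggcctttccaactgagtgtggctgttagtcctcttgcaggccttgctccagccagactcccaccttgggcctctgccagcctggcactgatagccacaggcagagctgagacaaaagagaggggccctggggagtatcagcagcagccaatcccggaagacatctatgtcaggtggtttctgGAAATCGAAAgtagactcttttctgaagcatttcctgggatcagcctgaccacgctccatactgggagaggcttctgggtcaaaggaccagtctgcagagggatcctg
ISG15 chr1:1013247-1013546 (+ strand): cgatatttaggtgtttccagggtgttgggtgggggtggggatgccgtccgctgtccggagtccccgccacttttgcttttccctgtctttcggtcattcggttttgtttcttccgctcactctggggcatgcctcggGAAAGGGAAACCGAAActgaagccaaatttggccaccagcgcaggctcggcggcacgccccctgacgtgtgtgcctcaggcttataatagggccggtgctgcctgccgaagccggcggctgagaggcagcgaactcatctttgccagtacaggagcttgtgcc

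In IFIT3 the matches begin 156 and 122 bases before the upstream start, and 94 and 51 bases before the downstream start, all on the opposite strand. In IFI44L they begin 164 and 73 bases before the start, and this window holds 0 CpG dinucleotides. LGALS3BP has 1 match, 58 bases before its start, and 4 CpG dinucleotides. The ISG15 window has 2 overlapping matches and 20 CpG dinucleotides. RefSeq promoters were matched for 45 of the 54 members, and 32 of those 45 genes (71.1%) held a match in at least 1 promoter, against 1195 of 27305 genes in the whole table (4.38%). The median ratio of observed to expected CpG was 0.377 over the members' 59 promoters and 0.579 over all 35116. Among the members called higher in Loucy, 8 of the 11 with a promoter in the table held a match, and so did 24 of the other 34. A match is a description of letters, not evidence that a factor binds there.

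Reads counted on the gene's strand numbered 10.2 to 15.4 M per library in Loucy and 9.93 to 15.03 M in PER-117, against 2.82 to 10.6 M in PEER, 2.49 to 6.54 M in TALL-1 and 2.20 to 5.26 M in MOLT-16. The T-cell genes CD3D, CD3E, CD3G, CD247, LCK, CD7 and BCL11B were read in every group, while CD2 and CD5 averaged under 1 CPM in PER-117. CD2 also averaged under 1 CPM in Loucy with DMSO, and PTCRA did so in every group but those of TALL-1. Of these 10 T-cell genes, 5 were called lower with DAC in PER-117, 4 in TALL-1, 2 in Loucy and 1 in PEER. In the other direction 1 was called higher, CD2 in Loucy. In bulk RNA, fewer cells of a type and less RNA per cell cannot be told apart. Transcripts restricted to another line were found in 3 DMSO libraries. TALL-1 DMSO replicate 3 held 11 of 11 genes restricted to PEER, at a median of 14.1% of their level in PEER. The same 11 genes stood at 23.9% in MOLT-16 DMSO replicate 3, and PEER DMSO replicate 2 held 8 of 9 genes restricted to MOLT-16 at 9.08%. The other 27 libraries reached at most 1.97%. Among these, Loucy DAC libraries stood at 1.04% to 1.15% for genes restricted to MOLT-16. Loucy DMSO libraries reached at most 0.147% for the genes of any other line. The part of this difference in the rises of Loucy was not tested. Counts of calls in each line are given with and without the 3 DMSO libraries that stood apart, called the mixed libraries below. Levels, medians and log2 changes are those of all libraries unless stated.

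Loucy was the line in which most members rose. There 14 of 54 members were called higher with DAC (10.6% of all genes tested were called higher) and 1 was called lower (4.13% of all genes). PER-117 had 6 higher and 1 lower (8.67% and 3.16% of all genes), TALL-1 had 5 higher and 7 lower (6.74% and 6.12%), and PEER had 1 higher and 0 lower (3.54% and 0.961%, 4.5% either way), with 7 members at an unadjusted p under 0.05, 5 of them higher, and 0 called lower by DESeq2. A call means an adjusted p under 0.05 in edgeR's quasi-likelihood test, with p-values adjusted by Benjamini-Hochberg over all 15081 genes. In MOLT-16 the same test called 0 members in either direction (2.19% and 1.01% of all genes, 3.2% either way), with 9 members at an unadjusted p under 0.05, 6 of them higher, and DESeq2 called 0 higher and 1 lower. The share of all genes at an unadjusted p under 0.05 in PEER and in MOLT-16 is not given here. No member was called higher in 3 or more lines. IFIT3, LGALS3BP, GBP2 and IFITM3 were called higher in 2 lines each, 18 further members in 1 line, and 25 members were called in no line. The shares of all genes by the number of lines with a call are not given here, so these counts have no background.

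Over the whole list the median change was highest in Loucy. It was 0.39 on the log2 scale there, against 0.03 over all genes tested. It was 0.15 against -0.01 in MOLT-16, 0.12 against 0.00 in TALL-1, 0.09 against 0.05 in PER-117 and -0.08 against -0.02 in PEER. Without DAC replicate 2 the median in TALL-1 was -0.03. In Loucy 44 members had a fitted log2 change above 0. The share of all genes above 0 is not given here, and their median was 0.03. All 3 DAC libraries of Loucy stood above all 3 DMSO libraries for 28 members (23.4% of all genes) and below them for 4 (15.7% of all genes). In PER-117 the DAC libraries stood above for 13 members (21.6% of all genes) and below for 12 (14.7%). In TALL-1 they stood above for 10 (15.5%) and below for 10 (14.1%), in PEER above for 5 (12.5%) and below for 5 (11.2%), and in MOLT-16 above for 3 (9.18%) and below for 2 (7.33%).

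**Figure D1:**
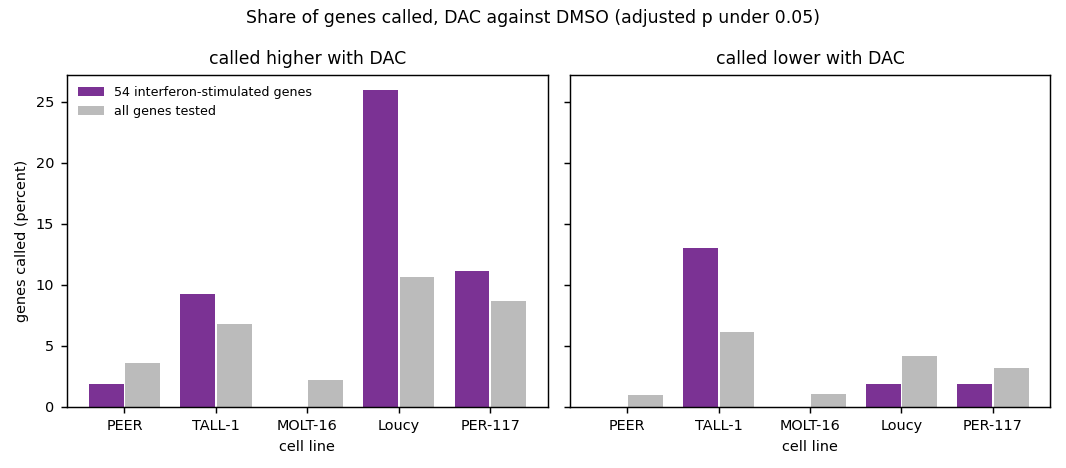
Percent of genes called higher (left) and lower (right) with DAC in each line at an adjusted p under 0.05, for the 54 interferon-stimulated genes and for all 15081 genes tested. The members' share called higher stands well above that of all genes in Loucy (14 of 54 members against 10.6% of all genes), and the members' share called lower is the larger one in TALL-1 (7 of 54 against 6.12%). Without TALL-1 DMSO replicate 3, which held PEER transcripts, 3 of 54 were called lower there, and the share of all genes in that fit is not given here. Without all 3 mixed libraries 7 of 54 were called lower there (6.49% of all genes).

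**Figure D2:**
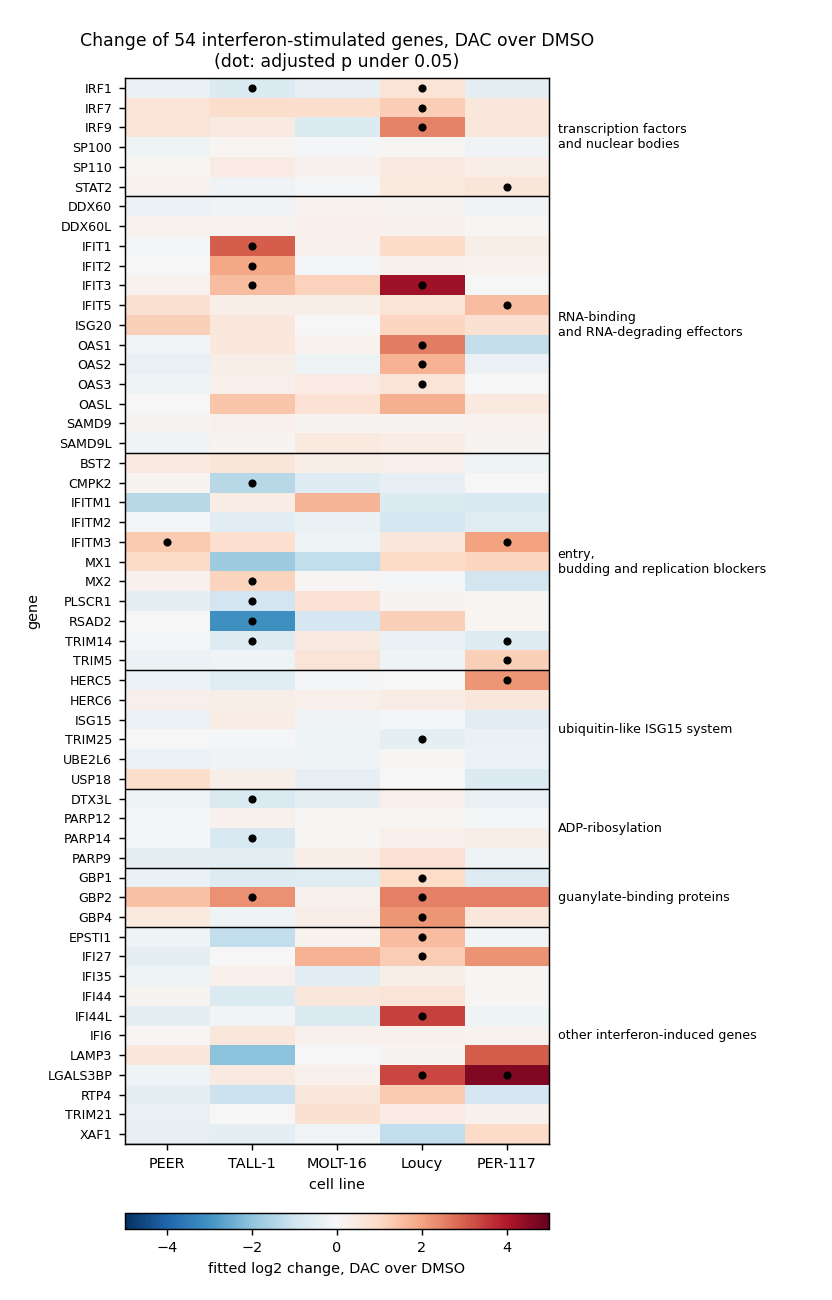
Fitted log2 change, DAC over DMSO, of the 54 members (rows, grouped by role) in the 5 lines (columns), with a dot where the adjusted p is under 0.05. Loucy holds 15 of the 35 dots, MOLT-16 holds 0, and the darkest cells are LGALS3BP in PER-117 (4.61), IFIT3 in Loucy (4.26) and, in the other direction, RSAD2 in TALL-1 (-3.07).

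In Loucy 3 factors that drive the pathway were called higher, together with part of its effectors. Of 6 transcription factors and nuclear-body proteins, IRF1, IRF7 and IRF9 were called higher. IRF9, the DNA-binding subunit of the complex that it forms with STAT2, had 6.89, 6.69 and 5.96 CPM with DAC, against 1.58, 1.23 and 0.683 CPM with DMSO. CPM is the count per 1 M reads of the library's scaled depth. The groups did not overlap, and the log2 change was 2.47 (SE 0.47, adjusted p = 0.000417). The last 500 exonic bases of IRF9 lie wholly within exons of another gene on the same strand, AL136295.5, so reads there are ambiguous and the IRF9 level is uncertain.

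IRF7, which amplifies the transcription of interferon genes, had 16.2, 8.92 and 13.4 CPM with DAC, against 5.66, 4.15 and 6.76 CPM with DMSO (log2 1.22, SE 0.27, adjusted p = 0.00221). IRF1, a factor induced by interferon gamma, had 64.5, 50.6 and 58.0 CPM with DAC, against 39.5, 35.1 and 33.2 CPM with DMSO (log2 0.68, SE 0.16, adjusted p = 0.00306). For both genes every DAC library was above every DMSO library. STAT2 did not pass the test, at 53.8 ± 2.42 CPM with DAC and 38.1 ± 9.96 CPM with DMSO (SD, n = 3 each), with an adjusted p of 0.0631. USP18, which strips ISG15 from proteins and restrains the interferon receptor, stood at 10.2 ± 3.02 CPM with DAC and 10.4 ± 1.40 CPM with DMSO (adjusted p = 0.963).

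Among 13 RNA-binding and RNA-degrading effectors, IFIT3, OAS1, OAS2 and OAS3 were called higher in Loucy. IFIT3, a partner of IFIT1 in binding foreign RNA, had 2.23, 2.17 and 3.86 CPM with DAC, against 0.0658, 0.175 and 0.137 CPM with DMSO. That is 117 reads against 6 reads over the groups, and a log2 change of 4.26 (SE 0.49, adjusted p = 4.13e-07). Its neighbours IFIT1 and IFIT2 did not pass the test, with log2 changes of 0.95 and 0.22. The 3 OAS enzymes make the oligoadenylates that activate the nuclease RNase L. OAS1 had 2.50, 1.27 and 3.78 CPM with DAC, against 0.395, 0.467 and 0.341 CPM with DMSO, and OAS2 had 2.09, 0.723 and 2.01 CPM with DAC, against 0.329, 0.642 and 0.410 CPM with DMSO. OAS1 changed by 2.57 on the log2 scale (adjusted p = 0.000533), OAS2 by 1.72 (adjusted p = 0.0117) and OAS3 by 0.64 (adjusted p = 0.00897). The rises of OAS1 and OAS2 were thus carried by few reads per library, while OAS3 had 525 reads with DAC and 364 with DMSO.

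All 3 guanylate-binding proteins of the list, interferon-induced GTPases that act against pathogens inside the cell, rose in Loucy. GBP2 had 6.15, 9.70 and 10.4 CPM with DAC, against 1.18, 1.64 and 1.71 CPM with DMSO (log2 2.52, SE 0.40, adjusted p = 3.85e-05). GBP4 had 4.53, 2.95 and 4.03 CPM with DAC, against 0.987, 0.526 and 0.956 CPM with DMSO (log2 2.21, SE 0.39, adjusted p = 0.000179). In both genes the lowest DAC library was well above the highest DMSO library. GBP1 changed by 0.90 (adjusted p = 0.0197).

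Of the 11 remaining interferon-induced genes, IFI44L, LGALS3BP, EPSTI1 and IFI27 rose in Loucy. IFI44L had 4.66, 2.77 and 4.59 CPM with DAC, against 0.461, 0.234 and 0.410 CPM with DMSO (log2 3.40, SE 0.39, adjusted p = 3.87e-07). LGALS3BP, a secreted glycoprotein that binds galectins, had 1.96, 3.01 and 2.58 CPM with DAC, against 0.132, 0.467 and 0.0683 CPM with DMSO (log2 3.35, SE 0.41, adjusted p = 1.16e-06). Both genes were close to silent with DMSO, and no library of one treatment reached those of the other. EPSTI1 was more abundant in both treatments, with 52.8, 39.5 and 41.1 CPM with DAC, against 17.8, 15.8 and 11.7 CPM with DMSO (log2 1.56, SE 0.39, adjusted p = 0.00616). IFI27, a mitochondrial protein, changed by 1.26 (adjusted p = 0.0392).

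No member above 35.9 CPM with DMSO was called higher in Loucy. ISG15 had 90.0, 95.1 and 106 CPM with DAC, against 96.9, 105 and 113 CPM with DMSO, with overlapping groups (adjusted p = 0.759). HERC5, the main ligase for ISG15, stood at 103 ± 12.6 CPM with DAC and 102 ± 17.6 CPM with DMSO, and MX2, a GTPase that blocks nuclear entry of retroviruses, at 51.9 ± 2.06 CPM with DAC and 54.2 ± 2.08 CPM with DMSO. IFITM2, which acts on viral entry, had 355, 331 and 342 CPM with DAC, against 617, 506 and 747 CPM with DMSO, and missed the threshold (log2 -0.86, adjusted p = 0.0639). TRIM25, a ubiquitin ligase of the RNA sensor RIG-I, was the member called lower, with 108, 123 and 128 CPM with DAC, against 160.2, 161 and 164 CPM with DMSO (log2 -0.43, SE 0.12, adjusted p = 0.0111). The median DMSO level was 0.993 CPM among the 14 members called higher and 14.2 CPM among the other 40.

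**Figure D3:**
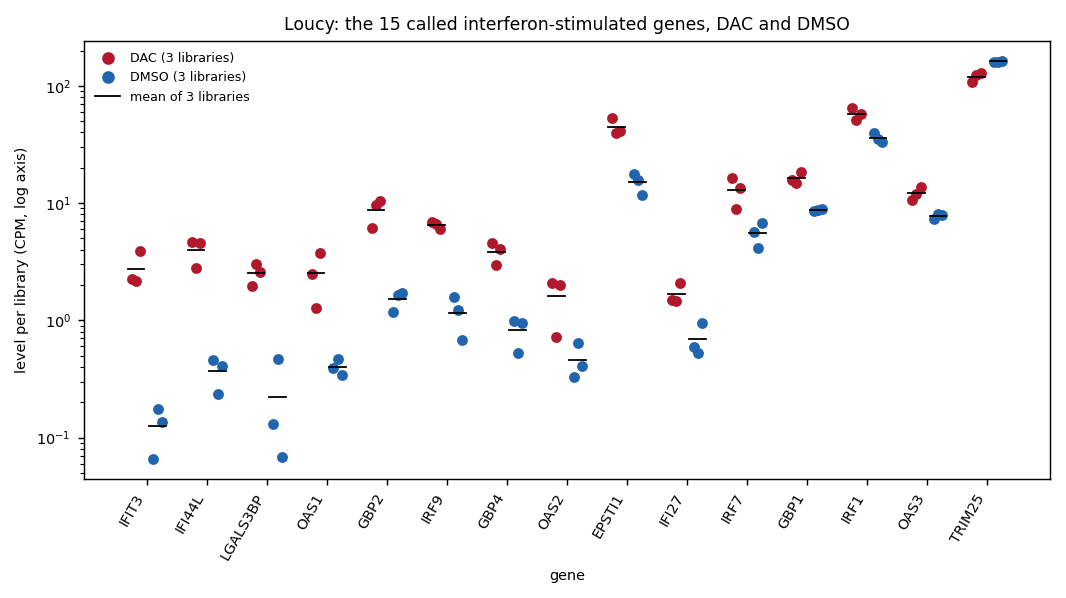
Level per library (CPM, log axis) of the 15 members called in Loucy, DAC in red on the left and DMSO in blue on the right of each gene, with the mean of 3 libraries as a bar. In all 15 genes the DAC and DMSO libraries do not overlap, and 7 of the DMSO means lie under 1 CPM.

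Of the 15 calls in Loucy, 10 were kept under each alternative tried, and IFI27, OAS2, OAS3, GBP1 and TRIM25 were each lost when single libraries were left out. IFI27 lost its call when any 1 of the 6 Loucy libraries but DMSO replicate 3 was left out (log2 1.08 to 1.36, adjusted p up to 0.163), and GBP1 when any 1 but DAC replicate 2 was (0.81 to 0.94, up to 0.0936). OAS2 lost it without DAC replicate 1, DAC replicate 3, DMSO replicate 1 or DMSO replicate 3 (1.47 to 1.64, up to 0.0821). OAS3 lost it without DAC replicate 3 (adjusted p = 0.0532) and TRIM25 without DAC replicate 1 (adjusted p = 0.0767). The log2 change of LGALS3BP was 4.44 without DMSO replicate 2. With the 3 mixed libraries of other lines left out of the common fit, 21 members were called higher in Loucy (14.5% of all genes) and 3 lower (8.0% of all genes), and these included all 15 named above. Myeloid genes moved with the rise in Loucy. Summed over a list of 6 (CD14, LYZ, CSF1R, MPO, CD68 and ITGAX) their level was 29.5 to 31.3 CPM per library with DAC, against 5.59 to 7.71 CPM with DMSO. MPO and ITGAX were called higher, CD14 averaged 0.228 CPM with DAC and 0.0447 CPM with DMSO, CD68 averaged 0.266 CPM with DAC and had 0 reads with DMSO, and the part of these genes in the result was not tested. Plasmacytoid dendritic genes, of cells that make much interferon, summed to 0.121 to 0.541 CPM with DAC, against 0 to 0.0584 CPM with DMSO. Of these genes, CLEC4C and IL3RA had 0 reads in Loucy. IL3RA had 0 reads in every library of the other lines as well, so its 0 is not shown to mean absence.

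In TALL-1 the list moved both ways, with 3 of the IFIT genes higher and a set of other effectors lower. IFIT3 had 22.5, 25.0 and 26.4 CPM with DAC, against 10.1, 7.38 and 7.88 CPM with DMSO (log2 1.54, SE 0.31, adjusted p = 0.000944). IFIT2 had 2.76, 3.74 and 3.06 CPM with DAC, against 1.07, 0.738 and 0.716 CPM with DMSO (log2 1.93, SE 0.47, adjusted p = 0.00654). IFIT1, which binds viral RNA lacking the host cap mark, had 1.84, 2.99 and 1.91 CPM with DAC, against 0.215, 0 and 0.537 CPM with DMSO (log2 3.01, SE 0.77, adjusted p = 0.00921). The groups of all 3 genes were apart, though IFIT1 rested on 33 reads with DAC and 4 with DMSO. The IFIT1 change was 2.26 with reads of both strands counted. It was 4.18 when DMSO replicate 3 was left out, and 2.69 when DAC replicate 2 was, which ended the call (adjusted p = 0.0644).

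MX2 had 21.2, 23.2 and 21.4 CPM with DAC in TALL-1, against 9.01, 9.84 and 11.8 CPM with DMSO (log2 1.10, SE 0.20, adjusted p = 0.000401). GBP2 had 4.14, 2.99 and 3.06 CPM with DAC, against 0.858, 0 and 1.07 CPM with DMSO (log2 2.27, SE 0.66, adjusted p = 0.0211). MX2 was called under every alternative, while GBP2 lost its call without DAC replicate 1 (adjusted p = 0.0759) and without DMSO replicate 2 (adjusted p = 0.0801).

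The 7 members called lower in TALL-1 were RSAD2, CMPK2, PLSCR1, PARP14, DTX3L, IRF1 and TRIM14. RSAD2 (viperin), which makes a chain-terminating nucleotide against viral polymerases, had 0.460, 1.05 and 0.382 CPM with DAC, against 4.94, 1.97 and 10.9 CPM with DMSO (log2 -3.07, SE 0.69, adjusted p = 0.0029). CMPK2, a nucleotide kinase encoded next to RSAD2 on chromosome 2, had 5.98, 4.19 and 6.88 CPM with DAC, against 11.8, 6.89 and 23.5 CPM with DMSO (log2 -1.41, SE 0.38, adjusted p = 0.0127). In both genes the highest DMSO value was that of replicate 3, the library that held PEER transcripts, and PEER DMSO libraries averaged 56.2 CPM of RSAD2 and 83.8 CPM of CMPK2. The log2 change of RSAD2 was -3.80 without DAC replicate 2. Without DMSO replicate 3 the log2 changes were -2.26 for RSAD2 (adjusted p = 0.0514) and -0.80 for CMPK2 (adjusted p = 0.201). Without all 3 mixed libraries, where the spread is estimated anew, they were -2.26 (adjusted p = 0.00192) and -0.81 (adjusted p = 0.0261).

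Of 4 ADP-ribosylation genes, 2 fell in TALL-1. DTX3L, the ubiquitin ligase partner of PARP9, had 55.2, 49.2 and 44.0 CPM with DAC, against 88.2, 79.0 and 81.8 CPM with DMSO (log2 -0.74, SE 0.13, adjusted p = 0.000333). PARP14, a mono-ADP-ribosyltransferase, had 22.1, 27.5 and 16.4 CPM with DAC, against 38.4, 32.2 and 43.0 CPM with DMSO (log2 -0.75, SE 0.16, adjusted p = 0.00234). Neither gene's groups overlapped, and both were called under every alternative. PLSCR1, a phospholipid scramblase, had 17.5, 27.7 and 15.7 CPM with DAC, against 33.9, 44.5 and 43.9 CPM with DMSO (log2 -0.97, SE 0.27, adjusted p = 0.0175). It lost its call without DAC replicate 1, DAC replicate 3, DMSO replicate 2 or DMSO replicate 3 (log2 -0.91 to -0.84, adjusted p up to 0.0864).

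IRF1 fell in TALL-1, to 92.7, 90.5 and 82.2 CPM with DAC, against 156, 138 and 134 CPM with DMSO (log2 -0.69, SE 0.16, adjusted p = 0.00455), and kept its call under every alternative. It was the 1 member called higher in one line and lower in another. TRIM14, an adaptor of the mitochondrial antiviral signal, overlapped between DAC (10.3, 15.7 and 14.9 CPM) and DMSO (21.9, 15.5 and 26.3 CPM), and its call (adjusted p = 0.0334) was lost without the 3 mixed libraries (log2 -0.46, adjusted p = 0.14). Leaving out DAC replicate 1, DAC replicate 3, DMSO replicate 1 or DMSO replicate 3 also ended it (log2 -0.70 to -0.46). Leaving out DMSO replicate 3 alone left 3 members called lower, IRF1, DTX3L and PARP14, and the share of all genes in that fit is not given here. Leaving out all 3 mixed libraries gave 5 higher (7.46% of all genes) and 7 lower (6.49%), with 5 and 6 of the members above among them and HERC5 (log2 -0.72) in the place of TRIM14.

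**Figure D4:**
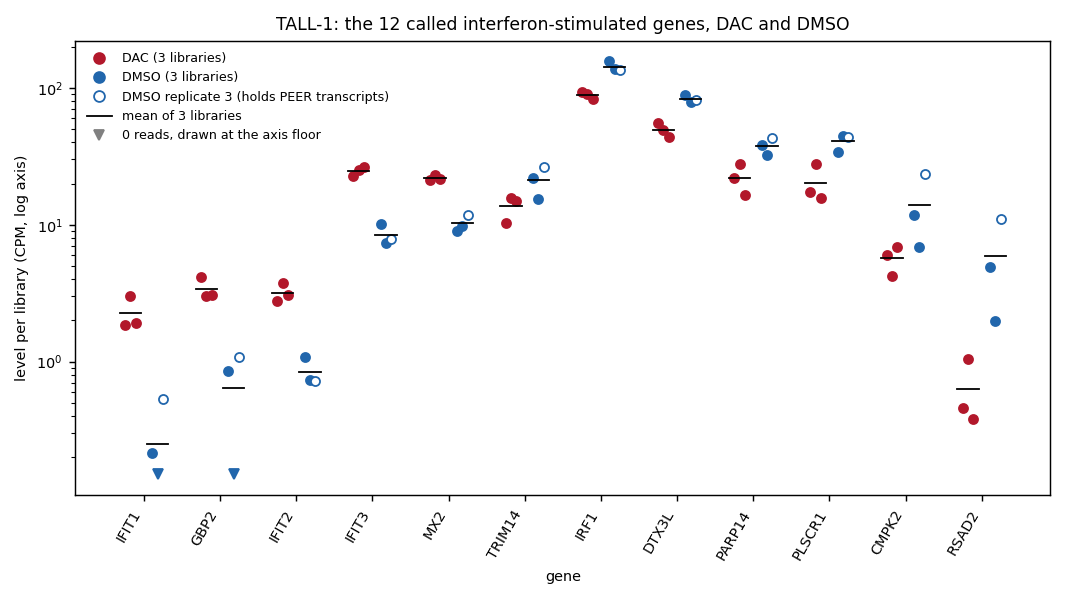
Level per library (CPM, log axis) of the 12 members called in TALL-1, DAC in red on the left and DMSO in blue on the right of each gene, with the mean of 3 libraries as a bar. The open symbol is DMSO replicate 3, the highest DMSO library for 4 of the 7 members called lower, among them RSAD2 (10.9 CPM) and CMPK2 (23.5 CPM).

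In PER-117 the rises were few and came mostly from genes that were nearly silent with DMSO. LGALS3BP had 1.85, 1.99 and 2.58 CPM with DAC, against 0, 0.104 and 0.108 CPM with DMSO. That is 74 reads against 2 reads, a ratio of 29.5 per unit of depth (95% exact counting interval 7.87 to 248, adjusted p = 7.02e-06). HERC5 had 2.59, 2.84 and 0.738 CPM with DAC, against 0.447, 0.313 and 0.540 CPM with DMSO (log2 2.23, SE 0.64, adjusted p = 0.0203). In both genes all DAC libraries lay above all DMSO libraries, by the least in HERC5, whose DAC replicate 3 was low.

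IFITM3, which blocks fusion of viruses with endosomes, had 3.48, 3.03 and 5.35 CPM with DAC in PER-117, against 0.224, 1.67 and 0.971 CPM with DMSO (log2 2.01, SE 0.43, adjusted p = 0.00187). TRIM5, which binds the capsids of retroviruses, had 14.9, 15.3 and 13.5 CPM with DAC, against 8.38, 6.05 and 4.96 CPM with DMSO (log2 1.17, SE 0.25, adjusted p = 0.00138). TRIM5, IFITM3 and LGALS3BP were called under every alternative, although the log2 change of IFITM3 was 2.68 without DMSO replicate 2. IFIT5 had 2.15, 2.08 and 1.48 CPM with DAC, against 0.335, 0.313 and 1.29 CPM with DMSO (log2 1.54, adjusted p = 0.0341). STAT2 had 18.5, 16.9 and 20.3 CPM with DAC, against 10.7, 11.6 and 14.4 CPM with DMSO (log2 0.60, adjusted p = 0.0452).

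The calls of IFIT5, STAT2 and HERC5 depended on single libraries. IFIT5 and HERC5 each lost the call without DAC replicate 1, DAC replicate 2, DMSO replicate 1 or DMSO replicate 2 (log2 1.20 to 1.47, adjusted p up to 0.189, for IFIT5, and 1.96 to 2.25, up to 0.0958, for HERC5). The log2 change of IFIT5 was 2.50 without DMSO replicate 3. STAT2 lost its call without any 1 library but DMSO replicate 3 (0.51 to 0.66, up to 0.183). The count of higher members was 3 without DAC replicate 1, without DAC replicate 2 and without DMSO replicate 1. TRIM14 was the member called lower, with 47.5, 44.9 and 37.8 CPM with DAC, against 76.9, 69.4 and 57.5 CPM with DMSO (log2 -0.65, SE 0.17, adjusted p = 0.0106). It too lost its call without DAC replicate 3 (adjusted p = 0.0708) and without DMSO replicate 1 (0.0744). The count of lower members was 3 without DMSO replicate 2 and 2 without DMSO replicate 3. For these counts of higher and lower members with single libraries left out, the shares of all genes are not given here. Without the 3 mixed libraries of other lines the counts in PER-117 were 6 higher (11.9% of all genes) and 6 lower (5.6%), the lower ones now including ISG15, IRF1, IFITM2, DTX3L and TRIM25. ISG15 had 39.1, 39.0 and 45.7 CPM with DAC, against 59.7, 64.2 and 57.3 CPM with DMSO, and missed the threshold with all libraries (log2 -0.55, adjusted p = 0.0632).

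In PEER 1 member passed the test. It was IFITM3, with 9.53, 9.07 and 7.94 CPM with DAC, against 2.68, 4.39 and 3.72 CPM with DMSO (log2 1.32, SE 0.39, adjusted p = 0.0454), and the groups did not overlap. The call was lost whichever of the 6 PEER libraries was left out (adjusted p 0.0572 to 0.163), with log2 changes of 1.15 to 1.49. ISG20, an RNA exonuclease, had 27.0, 27.0 and 22.6 CPM with DAC, against 12.3, 11.6 and 9.92 CPM with DMSO, and missed the threshold (log2 1.18, adjusted p = 0.0551). Without the 3 mixed libraries IFITM3, ISG20 and GBP2 were called higher (4.7% of all genes) and 0 members lower by the same test. The members of IFITM are close copies of each other, so reads that fit several of them may be missing from the counts.

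In MOLT-16 no call was made with all libraries, and DMSO replicate 3 held the highest value of several members. EPSTI1 had 19.4, 19.1 and 7.89 CPM with DAC, against 6.64, 2.08 and 31.1 CPM with DMSO, and HERC5 had 7.05, 7.34 and 7.50 CPM with DAC, against 2.81, 2.68 and 15.8 CPM with DMSO. In each the highest value was that of DMSO replicate 3, which held PEER transcripts, and PEER DMSO libraries averaged 102 CPM of EPSTI1 and 78.1 CPM of HERC5. Without the 3 mixed libraries the log2 change was 1.78 for EPSTI1 (adjusted p = 0.00183), 1.36 for HERC5 (0.0146) and 2.72 for IFITM1 (0.0086). In all, 6 members were then called higher (9.78% of all genes) and 3 lower, namely IRF1, DTX3L and TRIM25 (7.93% of all genes). DMSO was then represented by 2 libraries, and without DMSO replicate 3 alone the counts were 3 higher (7.23% of all genes) and 2 lower (5.4% of all genes).

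The response itself was compared between the lines by testing whether the 5 changes were equal, and 18 of the 54 members differed (13.6% of all genes). Without the 3 mixed libraries 28 members did (27.8% of all genes). LGALS3BP differed most (adjusted p = 6.84e-06). Its log2 changes were 4.61 in PER-117 and 3.35 in Loucy, where it was close to silent with DMSO, against 0.44, 0.23 and -0.22 in TALL-1, MOLT-16 and PEER, where DMSO libraries averaged 28.7, 88.5 and 20.5 CPM. IFI44L (adjusted p = 5.82e-05) had log2 changes of 3.40 in Loucy and -0.70 to -0.12 in the other lines. For IFIT3 (adjusted p = 0.000383) they were 4.26 in Loucy and 0.01 in PER-117, and the DAC levels lay close together, with 2.75 ± 0.961 CPM in Loucy DAC libraries and 2.32 ± 0.0479 CPM in those of PER-117 (SD, n = 3 each).

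For IRF1 and DTX3L the fitted changes differed in sign as well as size. IRF1 (adjusted p = 0.000784) had log2 changes of 0.68 in Loucy and -0.69 to -0.32 in the other lines, and DTX3L (adjusted p = 0.00426) had 0.26 in Loucy and -0.74 to -0.25 elsewhere. The DTX3L change in Loucy did not pass the test of DAC against DMSO there (adjusted p = 0.167), so a rise is not shown. With all libraries DTX3L was called in TALL-1 only. OAS1 (adjusted p = 0.00479) had log2 changes of 2.57 in Loucy and -1.18 in PER-117, where the call was not made and it had 0.666, 1.33 and 1.84 CPM with DAC, against 3.02, 1.36 and 4.21 CPM with DMSO. MX2 (adjusted p = 0.00566) rose in TALL-1 and stood at -0.92 in PER-117, a value that did not pass the test there. RSAD2 (adjusted p = 0.0111) ranged from -3.07 in TALL-1 to 1.19 in Loucy, and its -0.84 in MOLT-16 was 0.51 without the 3 mixed libraries. PARP14 (adjusted p = 0.00817) ran from -0.75 in TALL-1 to 0.30 in PER-117, and TRIM5 (adjusted p = 0.0118) from -0.28 in PEER to 1.17 in PER-117. GBP2 also passed (adjusted p = 0.0311), with changes of 0.22 in MOLT-16 to 2.53 in PER-117, where 17 reads stood against 2.

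With the lines as replicates, 5 pairs of summed counts, 0 members were called by edgeR (8 of 13830 genes were called higher, 0.0578%). The smallest adjusted p among the members was 0.0954, for IRF7 at a log2 change of 0.87. At an unadjusted p under 0.05 there were 8 members (16.8% of all genes), 7 of them higher. With no filter on low counts 5 members were called higher and 2 lower (3.73% and 1.36% of all genes). DESeq2 on the filtered sums called 3 members higher and 1 lower (2.77% and 2.29% of all genes), GBP2 (1.73), IRF7 (0.88) and ISG20 (0.75) higher and IFITM2 (-0.49) lower. IRF7 had a fitted log2 change above 0 in each of the 5 lines, 0.52 to 1.22, and IFITM2 one below 0 in each, -0.86 to -0.07. In all, 9 members were above 0 in each line (IRF7, IFIT3, IFIT5, GBP2, SP110, SAMD9, DDX60L, HERC6 and IFI6), and 2 were below 0 in each, IFITM2 and TRIM25. Of these, 5 and 1 kept their sign in each line without the 3 mixed libraries. GBP2 and SP110 then stood at -0.04 and -0.02 in MOLT-16, HERC6 and IFI6 at -0.09 and -0.03 in PEER, and IFITM2 at 0.51 in TALL-1. The share of all genes with the same sign in each line is not given here, so these counts have no background.

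Several members stayed close to their DMSO level in all 5 lines, and none of them was called. The fitted log2 changes of SAMD9, a brake on viral translation, were 0.12 to 0.22 (0.49 in PEER without the 3 mixed libraries), and those of the RNA helicase-like DDX60L were 0.08 to 0.26. SP100, a nuclear-body protein, ran from -0.23 to 0.11, and PARP12, an ADP-ribosyltransferase, from -0.11 to 0.22. Small changes of this kind are not shown to be absent, since the SE of a single change was 0.12 or more for members with many reads.

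Given DMSO alone, the lines held very different levels of these genes. Among the DMSO groups 52 of 54 members differed, but so did 91.6% of all genes tested, so this is not particular to the list. IRF9 and IFIT2 were the members that did not pass (adjusted p = 0.494 and 0.113). The median DMSO level of the 54 members was 11.0 CPM in PEER, 10.4 CPM in MOLT-16, 9.21 CPM in TALL-1, 8.29 CPM in Loucy and, lowest, 5.84 CPM in PER-117. Members under 1 CPM numbered 2 in PEER, 4 in MOLT-16, 6 in TALL-1, 13 in Loucy and 15 in PER-117. The lines with the most near-silent members, PER-117 and Loucy, were also the most deeply sequenced. MOLT-16 had the highest level of 18 members, PER-117 the lowest of 17 and Loucy the lowest of 16. The levels of 22 members spanned 10-fold or more between lines, and 32 members reached 1 CPM in all 5 lines. With the 3 mixed libraries left out, the members under 1 CPM numbered 5 in PEER, 6 in MOLT-16 and 7 in TALL-1, 25 members spanned 10-fold or more, and 31 reached 1 CPM in all 5 lines.

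No line was high or low throughout. LGALS3BP spanned the widest range of the members that reached 5 CPM, at 93.0, 111 and 61.6 CPM in MOLT-16 DMSO libraries and 0, 0.104 and 0.108 CPM in PER-117. HERC5 was lowest in PER-117 too, at 0.447, 0.313 and 0.540 CPM, and highest in Loucy, at 122, 96.8 and 87.5 CPM. RSAD2 ran the other way, with 81.2, 75.7 and 94.6 CPM in PER-117 and 0.921, 0.642 and 0.546 CPM in Loucy. In the order of RSAD2 the step between PER-117 and PEER did not pass the test (adjusted p = 0.116), nor did that between MOLT-16 and TALL-1 (0.657), while PEER stood above MOLT-16 (6.20e-07) and TALL-1 above Loucy (9.23e-06).

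XAF1, a pro-apoptotic partner of the caspase inhibitor XIAP, had 26.0, 23.9 and 17.9 CPM in TALL-1 DMSO libraries, and 1 read over the 3 DMSO libraries of Loucy and 1 over those of PER-117. With DAC it had 0 reads in Loucy and 3 in PER-117, so no response was detectable at this depth. OAS2 had 40.6, 63.1 and 27.7 CPM in MOLT-16 and 0.329, 0.642 and 0.410 CPM in Loucy. MX2 had 52.2, 53.96 and 56.4 CPM in Loucy, and PER-117 had 1.01, 0.730 and 1.08 CPM. Neighbouring lines in the order of MX2 differed at each step (adjusted p at most 1.72e-05) but for TALL-1 and MOLT-16 (0.343). RTP4 and LAMP3 were each at 0 reads in 1 DMSO group, Loucy for RTP4 and PER-117 for LAMP3. In TALL-1 the 10 DMSO reads of LAMP3 all lay in replicate 3, which held PEER transcripts, and the other DMSO libraries had 0.

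**Figure D5:**
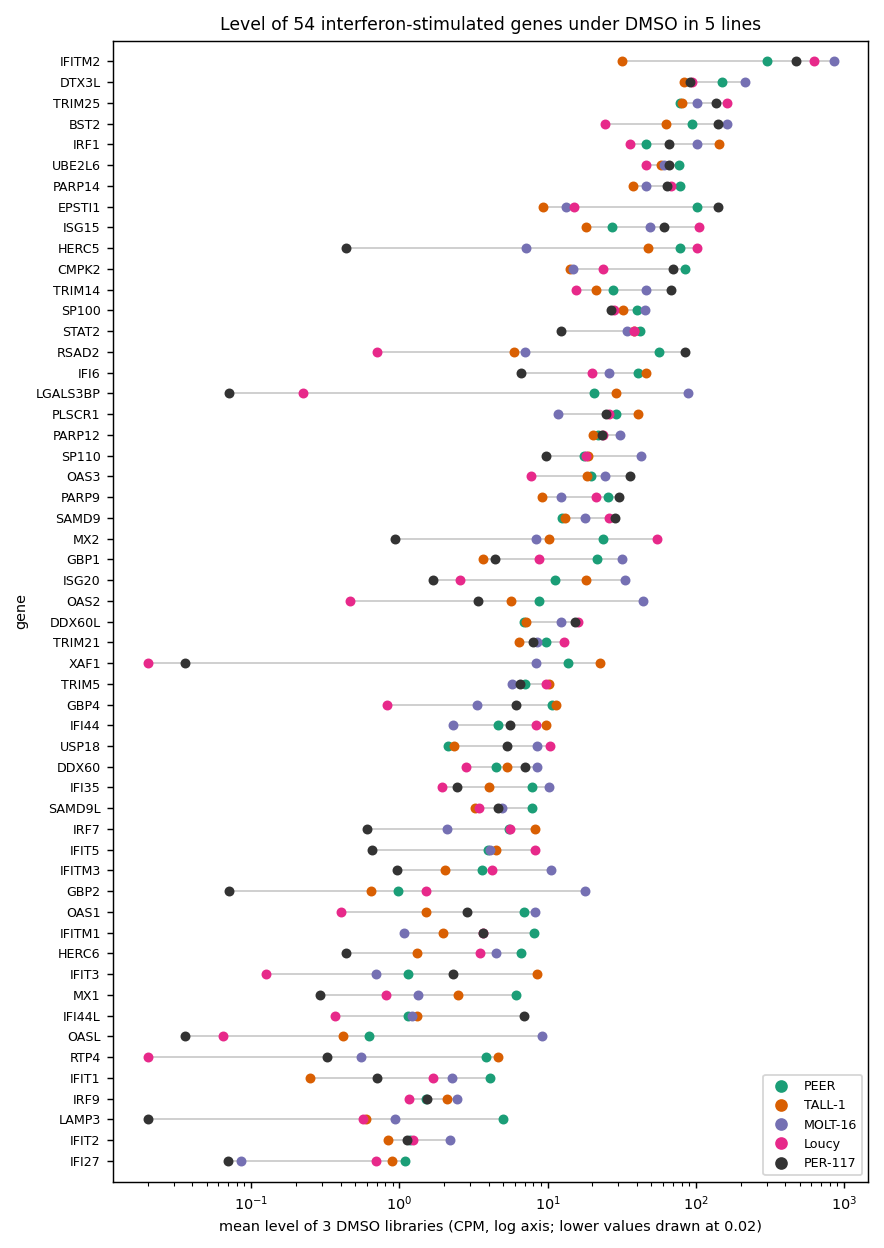
Mean level of 3 DMSO libraries (CPM, log axis) of each of the 54 members in the 5 lines, sorted by the mean over lines. Grey bars span the lines, and that of LGALS3BP runs from 0.0707 CPM in PER-117 to 88.5 CPM in MOLT-16.

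By mean CPM over the DMSO groups, which in these 3′-end libraries is not scaled to length, the members with most reads were IFITM2, DTX3L, TRIM25, BST2, IRF1, UBE2L6, PARP14 and EPSTI1. IFITM2 had 716, 1170.3 and 676 CPM in MOLT-16 DMSO libraries and 21.5, 8.61 and 64.3 CPM in TALL-1, the last of these being the library that held PEER transcripts. About 70.2% of the last 500 exonic bases of IFITM2 and of IFITM1 are shared between these neighbours, so their levels are uncertain. BST2 (tetherin), which holds budding virus at the cell surface, had 158, 132 and 193 CPM in MOLT-16 and 30.6, 21.3 and 21.1 CPM in Loucy. EPSTI1 had 137, 132 and 155 CPM in PER-117 and 8.58, 2.95 and 16.3 CPM in TALL-1. UBE2L6, the conjugating enzyme for ISG15, varied least of the 8, with 73.7, 82.1 and 75.2 CPM in PEER and 37.1, 46.2 and 55.2 CPM in Loucy. In DTX3L the extremes were 216, 241 and 189 CPM in MOLT-16 and 88.2, 79.0 and 81.8 CPM in TALL-1. TRIM25 had 160.2, 161 and 164 CPM in Loucy and 79.2, 76.1 and 77.9 CPM in PEER, and PARP14 82.5, 74.6 and 78.1 CPM in PEER and 38.4, 32.2 and 43.0 CPM in TALL-1.

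The rest of the pathway was read from a list of 48 ligands, receptors, kinases, sensors and inhibitors, of which 32 had reads enough to be tested. In Loucy IFIH1, IL10RB and IRF8 were among those called higher, and IFNAR2 was called lower. IFIH1, the sensor MDA5 of long viral RNA, had 8.11, 6.21 and 6.04 CPM with DAC, against 4.01, 3.80 and 3.41 CPM with DMSO (adjusted p = 0.0485). IL10RB, a subunit of the interferon lambda receptor, rose by 0.76 on the log2 scale, and IRF8 had 9 reads with DAC and 0 with DMSO, at least 3.22-fold higher when DMSO is set to 3 counts over its 3 libraries. IFNAR2, a subunit of the type I receptor, fell by 0.58.

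In TALL-1 the pathway list moved both ways, as the members did. EIF2AK2, the RNA-activated kinase PKR, fell by 0.58 on the log2 scale. TMEM173 (STING), STAT3 and the phosphatase PTPN6 were called higher, by 1.00, 0.76 and 0.68. In PER-117 SOCS3, an inhibitor of JAK kinases, had 3.55, 3.41 and 2.95 CPM with DAC, against 0.671, 0.313 and 0.647 CPM with DMSO (log2 2.58, SE 0.44, adjusted p = 0.000134). IL10RB rose there by 0.43. In PEER PTPN6 rose by 0.71 and PTPN2 fell by 0.52, and MOLT-16 had 1 call, IFNAR1, which fell by 0.58.

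The ligands gave few reads. Summed over the 5 lines, the 13 ligand genes had 372 reads with DAC and 179 with DMSO, of which IFNL1 took 295 and 170. IFNL1, an interferon lambda, was the 1 ligand tested, and it was called in PER-117, with 41 reads with DAC and 1 with DMSO (adjusted p = 0.00219). In Loucy it had 99 reads with DAC and 48 with DMSO and was not called. IFNG, the gene of interferon gamma, had 34 reads with DAC in Loucy (0.946, 1.02 and 0.242 CPM) and 0 with DMSO, at least 12.2-fold higher on the same floor, and 4 reads with DAC in MOLT-16. IFNB1 had 2 reads with DAC, both in MOLT-16, and 0 with DMSO. IFNL2 and IFNL3 are near-identical copies, so their 12 and 17 reads with DAC, against 3 and 5 with DMSO, cannot be assigned with certainty.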

How the data were processed

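The deposited files hold read counts per gene for each of 30 libraries, and per the labels' protocols these are QuantSeq 3′ FWD libraries of total RNA. Per the submitters' processing notes the authors aligned reads with STAR 2.4.2a to GRCh38 (hg38). Which annotation release they counted against is not given in the sources here. Counts on the gene's strand were used, which exceeded those on the opposite strand 12.8 to 15.2 times, and 27.5% to 43.9% of reads lay outside genes. Symbols came from GENCODE 29 (56996 of 60554 identifiers). Groups were taken from sample titles. For 2 PEER DMSO libraries the titles and file names exchange replicates 2 and 3, and the titles were used.

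All 30 libraries were fitted in edgeR 4.0.16 (R 4.3.3) with 10 group means, TMM scaling, filterByExpr (minimum count 10) and quasi-likelihood F tests. Benjamini-Hochberg adjustment ran over all 15081 genes, never over the list alone, and a call means an adjusted p under 0.05. CPM uses TMM-scaled library sizes. SEs are approximate, taken as the size of the log2 change over the root of F. Intervals and floors cover counting error only, and reads carry no molecular identifiers. The fit was tested on simulated data with known changes. In Loucy 78% of 2-fold and 99% of 4-fold changes were called, and 8.76% of all calls were false, more than an adjusted p under 0.05 aims at. In MOLT-16 these were 62%, 97% and 4.22%. The changed genes had more DMSO reads than near-silent members such as LGALS3BP in PER-117, so calls at such levels were not tested.

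The alternatives were DESeq2 1.42.0 size factors, its test, no filter, unstranded counts, a replicate block, each line's libraries alone and each library left out. Leaving out the 3 mixed libraries was chosen after seeing the data, as were the limits of that check: genes restricted to a line had at least 10 CPM in its DMSO libraries and under 1 CPM in all DAC libraries and at least 2 DMSO libraries of each other line, and a library stood apart above 5%. DAC libraries were used to choose these genes, so their low values do not show that they are free of mixing. One gene of the pathway list is not reported here. The members, the pathway list and the marker lists were chosen with earlier results of these data known. Per-library values are given for called members with non-overlapping groups (largest change first, up to 8 each way in a line), the 8 members with most reads, the 6 with the widest range between DMSO groups, the 10 whose response differs most, and the regulators STAT2, IRF1, IRF7, IRF9 and USP18. A few others (ISG15, ISG20, HERC5 and EPSTI1 in MOLT-16) were added after their values were seen.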

Additional observations from a re-analysis of the deposited data

Results flagged for a closer look

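The change with DAC differed between the 5 lines for 18 members by edgeR's quasi-likelihood test of equal changes (Benjamini-Hochberg adjustment over all genes, 13.6% of which passed). Of these, 10 have their values above: LGALS3BP (adjusted p = 6.84e-06), IFI44L (5.82e-05), IFIT3 (0.000383), IRF1 (0.000784), DTX3L (0.00426), OAS1 (0.00479), MX2 (0.00566), PARP14 (0.00817), RSAD2 (0.0111) and TRIM5 (0.0118). TRIM14 (adjusted p = 0.0154) had log2 changes of -0.65 in PER-117 and -0.64 in TALL-1, and 0.43 in MOLT-16. GBP4 (0.0208) and GBP1 (0.0227) were highest in Loucy, at 2.21 and 0.90, and in the other lines ran from -0.22 to 0.56 and from -0.65 to -0.34. GBP2 (0.0311) ran from 0.22 in MOLT-16 to 2.53 in PER-117.

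PLSCR1 (adjusted p = 0.0315) had log2 changes of -0.97 in TALL-1 and 0.71 in MOLT-16. EPSTI1 (0.034) had 1.56 in Loucy and -1.22 in TALL-1, where its DMSO libraries had 8.58, 2.95 and 16.3 CPM. MX1 (0.0382) had -1.78 in TALL-1, -1.23 in MOLT-16 and 0.96 to 1.09 in the other lines, and was called in no single line. Its change in MOLT-16 was 0.53 without the 3 mixed libraries. IFITM3 (0.0497) ran from -0.25 in MOLT-16 to 2.01 in PER-117. Both in TALL-1 and in MOLT-16, EPSTI1 and RSAD2 had their highest value in the DMSO library that held PEER transcripts, and so had MX1 in MOLT-16 (3.20 CPM) but not in TALL-1, where DMSO replicate 1 was highest (4.08 CPM). Without the 3 mixed libraries 28 members differed (27.8% of all genes), among them all 18.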

How the results depend on the processing

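Of the 35 calls of single members, 19 (16 higher, 3 lower) were kept under each alternative run, and 0 changed direction. The count of members higher in PEER was 2 with DESeq2 size factors, with no filter, with the DESeq2 test and with the PEER libraries alone, and 3 without the mixed libraries, and of members lower 1 with no filter. MOLT-16 had 6 higher without the mixed libraries, and 1, 1 and 3 lower with the DESeq2 test, with unstranded counts and without the mixed libraries. Loucy had 3 lower with its libraries alone and 3 without the mixed libraries. PER-117 had 3, 5, 7 and 6 lower with no filter, with the DESeq2 test, with its libraries alone and without the mixed libraries. The responses of 28 members (27.8% of all genes) differed between lines without the mixed libraries. With lines as replicates 5 members were higher and 2 lower with no filter (3.73% and 1.36% of all genes). With DESeq2, 3 were higher and 1 lower (2.77% and 2.29% of all genes).

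With single libraries left out, higher members numbered 0 to 1 in PEER, 4 to 5 in TALL-1, 0 to 3 in MOLT-16, 10 to 14 in Loucy and 3 to 6 in PER-117. Lower members numbered 3 to 8 in TALL-1, 0 to 2 in MOLT-16, 0 to 1 in Loucy and 0 to 3 in PER-117. Members differing between DMSO groups numbered 51 to 52, and members whose response differed 13 to 25, the highest without MOLT-16 DMSO replicate 3.

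Replicate numbers showed no pairing common to the 5 lines: same-numbered DAC and DMSO libraries correlated at -0.192 to 0.223 in their deviations, with 3 of 15 pairs over 0.1. In PER-117 same-numbered pairs stood at 0.0744, 0.130 and 0.196 and the others at -0.157 to 0.0501, so a weak pairing there is not excluded. With the number as a replicate block 2 members were higher in PEER, 15 in Loucy, 6 in TALL-1 and 5 in PER-117, where 3 were lower. IFI27 in Loucy (adjusted p = 0.0635) and IFIT5 in PER-117 (0.054) lost their calls under the block.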

Other observations

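The genes RSAD2 and CMPK2 are neighbours on chromosome 2, where RSAD2 occupies 6865806 to 6898239 on the plus strand and CMPK2 6840570 to 6866635 on the minus strand (GENCODE 29, GRCh38). Both genes had their highest DMSO levels in PEER and PER-117, at 56.2 and 83.9 CPM of RSAD2 and 83.8 and 70.0 CPM of CMPK2. They parted in Loucy, where DMSO libraries averaged 0.703 CPM of RSAD2 and 23.5 CPM of CMPK2.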
